A study of Mus musculus with 6 samples.

Results

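The genes described here are 42 Sox, T-box and Fox transcription factors that act in the development of embryonic lineages. They were given as a list of names, and each was described by the accessible regions at its annotated transcription starts and inside its gene body. The symbols of 41 of the 42 were found among the 22367 protein-coding genes of the annotation: 15 Sox, 12 T-box and 14 Fox genes. Sox1, the remaining gene, was not among those symbols and is described separately.

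Open chromatin was mapped by ATAC-seq, which uses the Tn5 transposase to place sequencing adapters into accessible DNA, in 6 libraries of mouse cells, 2 technical replicates for each of 3 culture states. The ESCs were the J1 line (strain 129SV) grown with feeders or gelatin in serum, LIF and 2i, that is CHIR99021 and PD0325901. D-EPSCs were grown in N2B27 with KSR, LIF, CHIR99021, dimethindene maleate and minocycline hydrochloride. L-EPSCs were grown in DMEM/F12 with KSR, LIF, CHIR99021, PD0325901, A-419259, XAV939, JNK inhibitor VIII and SB203580. Both EPSC cultures were derived from J1 ESCs, so all 3 states trace to 1 cell line, and the medium, the base and the inhibitors change together between states. The authors deposited 1 peak list per state, with 28965 peaks for ESCs, 50225 for D-EPSCs and 46601 for L-EPSCs on the chromosomes used. The lists give where a peak starts and ends but no height, replicate value or depth, so no comparison could be tested against replicate error. The main shares are given with 95% Wilson intervals that cover counting error only, beside the same share over all protein-coding genes. The absence of a peak also depends on sequencing depth, which is unknown here.

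Sox proteins bind DNA through an HMG box, T-box proteins through the domain that names them and Fox proteins through a forkhead domain. Members of each family direct neural, neural crest, mesodermal and endodermal fates, and many are silent or low in undifferentiated pluripotent cells. The start regions of such developmental regulators often lie in CpG islands, where CpG dinucleotides have escaped the depletion seen in the rest of the genome. Of 12 pluripotency genes, which mark the cell type common to the 3 states and cannot tell them apart, 10 had a start peak in ESCs and 12 in each EPSC list. Nanog and Tdgf1 were the pair with peaks in the EPSC lists only. Of 12 fibroblast genes, which would mark feeder cells, 3 had a start peak in ESCs, 6 in D-EPSCs and 3 in the L-EPSC list. Pdgfra was in all 3 lists, Col1a1 and Twist1 in both EPSC lists, Thy1 and Twist2 in the ESC and D-EPSC lists and Col1a2 in that of D-EPSCs. Col3a1, Prrx1, Postn, Lum, Dcn and Fap had no start peak in any list. By the study's methods, D-EPSCs and L-EPSCs had been passaged without feeders by the time of the assay. The part of feeder cells in the results below was not tested.

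A start peak is a peak that shares at least 1 bp with the 1 kb on either side of an annotated start. By that measure 18 of the 41 genes had a start peak in ESCs (43.9%, interval 29.9 to 59.0), 35 in D-EPSCs (85.4%, 71.6 to 93.1) and 32 in the L-EPSC list (78.0%, 63.3 to 88.0). Over all protein-coding genes the shares were 52.3% in ESCs, 64.2% in D-EPSCs and 61.5% in the L-EPSC list. The listed genes thus lay below all coding genes in the ESC list, within counting error, and above them in both EPSC lists. The D-EPSC interval stayed above the share of coding genes under all 8 settings tried, whereas the L-EPSC interval reached it under 4 of them, for instance with a window of 500 bp (28 of 41, 53.0 to 80.4, against 60.04%). The 18 genes with an ESC start peak were the same 18 that had a start peak in all 3 lists (43.9%, against 51.2% of coding genes). A further 13 genes had a start peak in both EPSC lists but not in ESCs (31.7%, 19.6 to 47.0, against 9.09% of coding genes). Sox3, Sox6, Tbx4 and Tbx5 had one in D-EPSCs only (4 genes, 9.76%, against 3.3%), and Foxa1 in L-EPSCs only (1 gene, 2.44%, against 0.908%). No gene had one in ESCs and at most 1 EPSC list (0 of 41, where the upper bound of the interval was 8.57%, against 1.1%). Sox10, Sox14, T, Tbx1 and Tbx19 had none in any list (5 genes, 12.2%, against 34.4%).

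**Figure D1:**
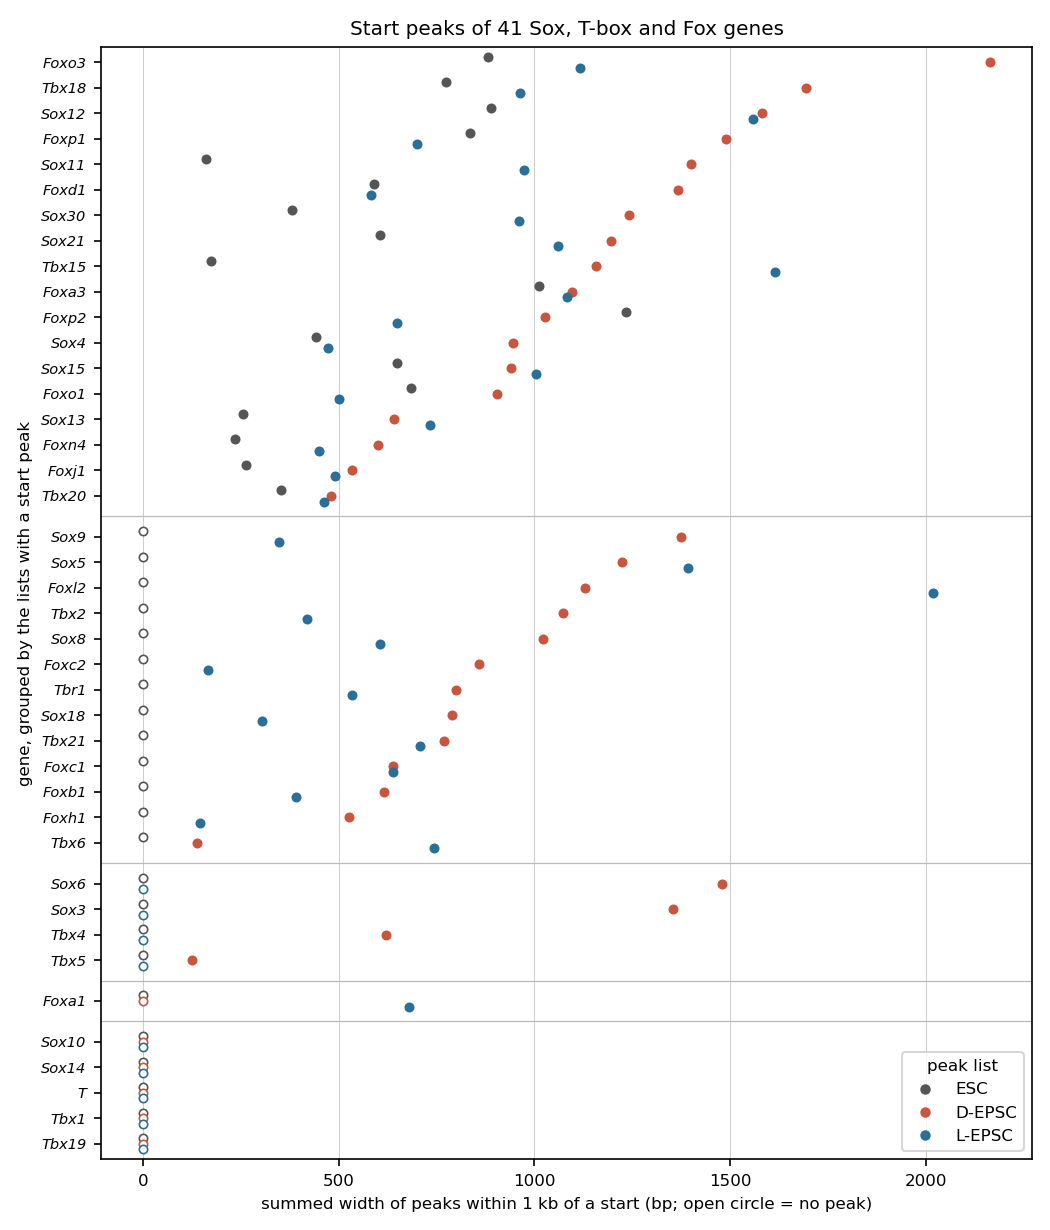
Summed width in bp of the peaks within 1 kb of a start, for each of 41 genes (rows) in the ESC (grey), D-EPSC (red) and L-EPSC (blue) lists, with open circles at 0 where a list has no start peak. The upper block holds the 18 genes with a peak in all 3 lists, the next block the 13 genes whose ESC circle is open while both EPSC circles are filled, and the last block the 5 genes with no start peak.

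By family, 7 of 15 Sox genes had a start peak in ESCs, 13 in D-EPSCs and 11 in the L-EPSC list. The T-box counts were 3, 9 and 7 of 12, and the Fox counts were 8, 13 and 14 of 14. Over all coding genes the shares were 52.3%, 64.2% and 61.5%. Every Fox gene listed had a start peak in L-EPSCs (78.5 to 100%). Foxc2 and Foxh1, with 165 and 144 bp, lost it when each list was cut to the length of the ESC list. Foxa2, Foxd3 and Foxs1, Fox genes off the list, had a start peak in D-EPSCs only. The ESC intervals of the 3 families overlapped, from 8.89 to 53.2% for T-box, 24.8 to 69.9% for Sox and 32.6 to 78.6% for Fox, so their order is not established by these counts. The genes are described below by role, in groups of at most 10. In each role group the intervals of the ESC, D-EPSC and L-EPSC shares include the corresponding share of all coding genes, so those counts are descriptions within counting error. For both EPSC lists only, the interval lay above the 9.09% of coding genes in 3 groups. These were heart and limb (4 of 10, 16.8 to 68.7%), neural crest (2 of 4, 15.0 to 85.0%) and early mesoderm (2 of 3, 20.8 to 93.9%). The groups are small, and the early mesoderm calls rest on the window, as given below.

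The lists differ in length, so the counts were repeated with the widest 28965 peaks of each list, as many as the ESC list holds. The kept D-EPSC peaks were then at least 309 bp wide and the kept L-EPSC peaks at least 279 bp, whereas the ESC list kept peaks down to 128 bp. Start peaks were found at 33 genes in D-EPSCs (66.0 to 89.8%, against 59.4% of coding genes) and 30 in the L-EPSC list (58.1 to 84.3%, against 57.0%), and at 18 in ESCs as before. The genes in both EPSC lists and not in ESCs numbered 10 of 41 (24.4%), against 1341 of 22367 coding genes by the same measure. Tbx6, Foxc2 and Foxh1, where 1 EPSC peak is narrow, left that group.

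The DNA under EPSC start peaks is shown for 5 genes of both lists and 3 of a single list that had no ESC start peak, because these are starts where the lists differ. At Tbx6 the L-EPSC peak also overlaps an ESC peak outside the window, which does not reach the stretch shown. Each sequence is the exon-free stretch shared by the D-EPSC and L-EPSC peaks, or lying in the single-list peak, cut to at most 180 bases. All are read 5′ to 3′ on the strand of the gene from mm9, with each CpG in capitals.
Sox9, both EPSC lists, + strand, chr11:112643394-112643537: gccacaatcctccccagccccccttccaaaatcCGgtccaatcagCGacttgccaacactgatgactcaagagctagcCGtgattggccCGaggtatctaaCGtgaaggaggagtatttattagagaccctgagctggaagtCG
Tbx2, both EPSC lists, + strand, chr11:85645855-85646034: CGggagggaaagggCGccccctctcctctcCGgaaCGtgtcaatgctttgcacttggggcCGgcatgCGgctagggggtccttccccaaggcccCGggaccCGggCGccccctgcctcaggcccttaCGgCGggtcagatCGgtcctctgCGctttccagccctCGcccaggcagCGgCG
Tbx6, both EPSC lists, + strand, chr7:133924234-133924340: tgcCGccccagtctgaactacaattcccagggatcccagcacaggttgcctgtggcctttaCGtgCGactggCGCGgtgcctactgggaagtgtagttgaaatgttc
Foxb1, both EPSC lists, − strand, chr9:69608748-69608900: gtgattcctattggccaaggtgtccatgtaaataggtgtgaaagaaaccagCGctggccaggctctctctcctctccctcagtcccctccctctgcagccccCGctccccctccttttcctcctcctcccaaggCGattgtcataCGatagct
Foxc1, both EPSC lists, + strand, chr13:31898282-31898461: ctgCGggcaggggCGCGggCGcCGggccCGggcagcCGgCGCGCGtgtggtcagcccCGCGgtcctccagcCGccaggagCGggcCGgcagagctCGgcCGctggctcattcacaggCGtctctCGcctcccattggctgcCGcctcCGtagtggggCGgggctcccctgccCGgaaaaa
Sox3, D-EPSC list only, − strand, chrX:58147215-58147394: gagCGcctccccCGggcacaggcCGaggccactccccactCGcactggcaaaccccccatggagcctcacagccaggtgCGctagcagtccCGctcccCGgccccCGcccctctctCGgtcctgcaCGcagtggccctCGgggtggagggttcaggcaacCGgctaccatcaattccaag
Tbx4, D-EPSC list only, + strand, chr11:85699588-85699767: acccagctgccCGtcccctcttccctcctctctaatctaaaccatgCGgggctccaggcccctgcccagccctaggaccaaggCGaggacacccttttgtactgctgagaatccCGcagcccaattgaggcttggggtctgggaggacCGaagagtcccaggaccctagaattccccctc
Foxa1, L-EPSC list only, − strand, chr12:58646421-58646600: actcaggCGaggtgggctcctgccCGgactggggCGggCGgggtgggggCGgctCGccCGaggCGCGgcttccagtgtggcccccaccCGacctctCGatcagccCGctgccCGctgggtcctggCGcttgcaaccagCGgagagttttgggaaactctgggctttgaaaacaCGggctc

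These stretches ranged widely in CpG content. The 180 bases from the stretch before the Foxc1 start held 23 CpG dinucleotides and the 180 before Tbx2 held 16, whereas the 144 bases that end at the Sox9 start held 6 and the 153 that end at the Foxb1 start held 4. The Foxa1 stretch lies in the first part of the gene, 508 to 687 bp after the start, and had 16. The 107 bases at Tbx6, which lie 657 to 763 bp before its start, had 5. The stretches are short and differ in length, so these counts do not describe the whole start: over the 1 kb on either side of a start, the highest ratio of observed to expected CpG was 0.756 at Sox9 and 0.721 at Foxb1.

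Among the 7 neural genes, 3 had a start peak in ESCs, 6 in D-EPSCs and 5 in the L-EPSC list. Sox21, a repressor in neural progenitors, Foxn4, a factor of retinal and spinal interneurons, and Foxp2, known for its part in vocal learning circuits, were in all 3 lists. Tbr1, a factor of early cortical projection neurons, had 800 bp of start peaks in D-EPSCs and 533 bp in the L-EPSC list. Those peaks lay near an internal start, since neither EPSC list had one at the outermost start, and with a window of 500 bp 1 list kept its peak. At Foxb1, a hypothalamic and neural tube gene, the widths were 616 and 389 bp, while no ESC peak lay nearer than 91950 bp to its start. At Tbr1 and Foxb1, the L-EPSC peak lay wholly within the D-EPSC peak.

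Sox3, a neural progenitor factor on the X chromosome, had 2 start peaks of 1354 bp in all in D-EPSCs. The nearest peak lay 345075 bp away in L-EPSCs and 488267 bp away in ESCs, the longest ESC distance of the 41 genes. Sox14, a gene of inhibitory interneurons, had no start peak, and its nearest D-EPSC peak lay 3058 bp away. For Sox1, the neural marker of the same subfamily as Sox3, the RefSeq promoter matched mm9 exactly once, with the start at position 12395519 of chromosome 8. It had a start peak of 639 bp for ESCs, 924 bp for D-EPSCs and 721 bp for L-EPSCs, and so unlike Sox3 was in all 3 lists.

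Of the 4 genes of neural crest, glia and stroma, Foxd1 was in all 3 lists. Sox9, which directs cartilage, testis and crest development, had 1374 bp of start peak in D-EPSCs and 346 bp in the L-EPSC list. Sox8, of the same SoxE group, had 1021 and 605 bp. In both genes the whole L-EPSC peak lay inside the D-EPSC peak, which covered the start, and the nearest ESC peak was 25941 bp from the Sox9 starts and 8324 bp from those of Sox8. Sox10, the SoxE gene of glia and melanocytes, had no start peak, although a D-EPSC peak of 119 bp lay in an intron, 1418 bp from the nearest start.

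All 6 SoxC and SoxD genes had a start peak in D-EPSCs, 4 of them also in ESCs and 5 in L-EPSCs. The SoxC genes Sox4, Sox11 and Sox12, which act in neural and mesenchymal progenitors, were in all 3 lists, as was the SoxD gene Sox13. The Sox13 ESC call rests on 1 narrow peak at an internal start and was lost under 4 of the 8 settings, among them starts of coding transcripts alone. Sox5, which acts with Sox6 in cartilage formation, had 1225 bp in D-EPSCs and 1393 bp in the L-EPSC list, mostly in 1 peak over the outermost of its 12 annotated starts. That outermost start belongs to a transcript not annotated as protein-coding, and with starts of coding transcripts alone Sox5 kept 1 start peak, of 171 bp, in the D-EPSC list. Sox6 had 2 D-EPSC start peaks of 1479 bp in all, but the call rests on the window. One of those peaks lay in a region that both other lists also hold, with their peaks 1102 bp (ESC) and 1234 bp (L-EPSC) from the nearest start, and with a window of 2.5 kb Sox6 was in all 3 lists.

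None of the 3 early mesoderm and Nodal genes had an ESC start peak. Foxh1, the partner of Smad proteins in Nodal signalling, had 526 bp in D-EPSCs and 144 bp in the L-EPSC list. Tbx6, a regulator of paraxial mesoderm, had 136 and 742 bp. At both genes the ESC list held a peak just outside the window, 1534 bp from the Foxh1 start and 1135 bp from the Tbx6 start. With a window of 2.5 kb both were in all 3 lists, so both calls rest on the window. T (Brachyury), the primitive streak marker, had no start peak, and the nearest peak lay 4169 bp away for ESCs, 4109 bp for D-EPSCs and 4143 bp for L-EPSCs.

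Of the 10 genes of heart, limb, vessel and paraxial mesoderm, 3 had a start peak in ESCs, 9 in D-EPSCs and 7 in the L-EPSC list. Tbx15, Tbx18 and Tbx20, which act in skeletal, epicardial and cardiac development, were in all 3 lists, although Tbx15 left the ESC list under 4 of the 8 settings, its 1 ESC start peak being 172 bp wide. Tbx2, a repressor in the heart and limb, had 1072 bp in D-EPSCs and 419 bp in the L-EPSC list. Foxc1 had 638 and 639 bp and Foxc2, its paralogue in mesoderm and vessel development, 857 and 165 bp. Sox18, a factor of lymphatic and vascular endothelium, had 790 and 304 bp, of which 79 bp were shared. The nearest ESC peak to a start of these 4 genes ranged from 7680 bp at Foxc2 to 77612 bp at Foxc1.

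The limb pair Tbx4 and Tbx5 had start peaks in D-EPSCs only. The Tbx4 peak, 621 bp wide, covered the start and extended before it, while the Tbx5 peak was 124 bp wide, in an intron. Tbx5 was lost under every setting that removed narrow peaks, whereas Tbx4 kept its list under all 8 settings tried. Tbx1, the pharyngeal gene of this group, had no start peak, and the nearest peak was 2576 bp away in D-EPSCs and 32735 bp away in ESCs.

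**Figure D2:**
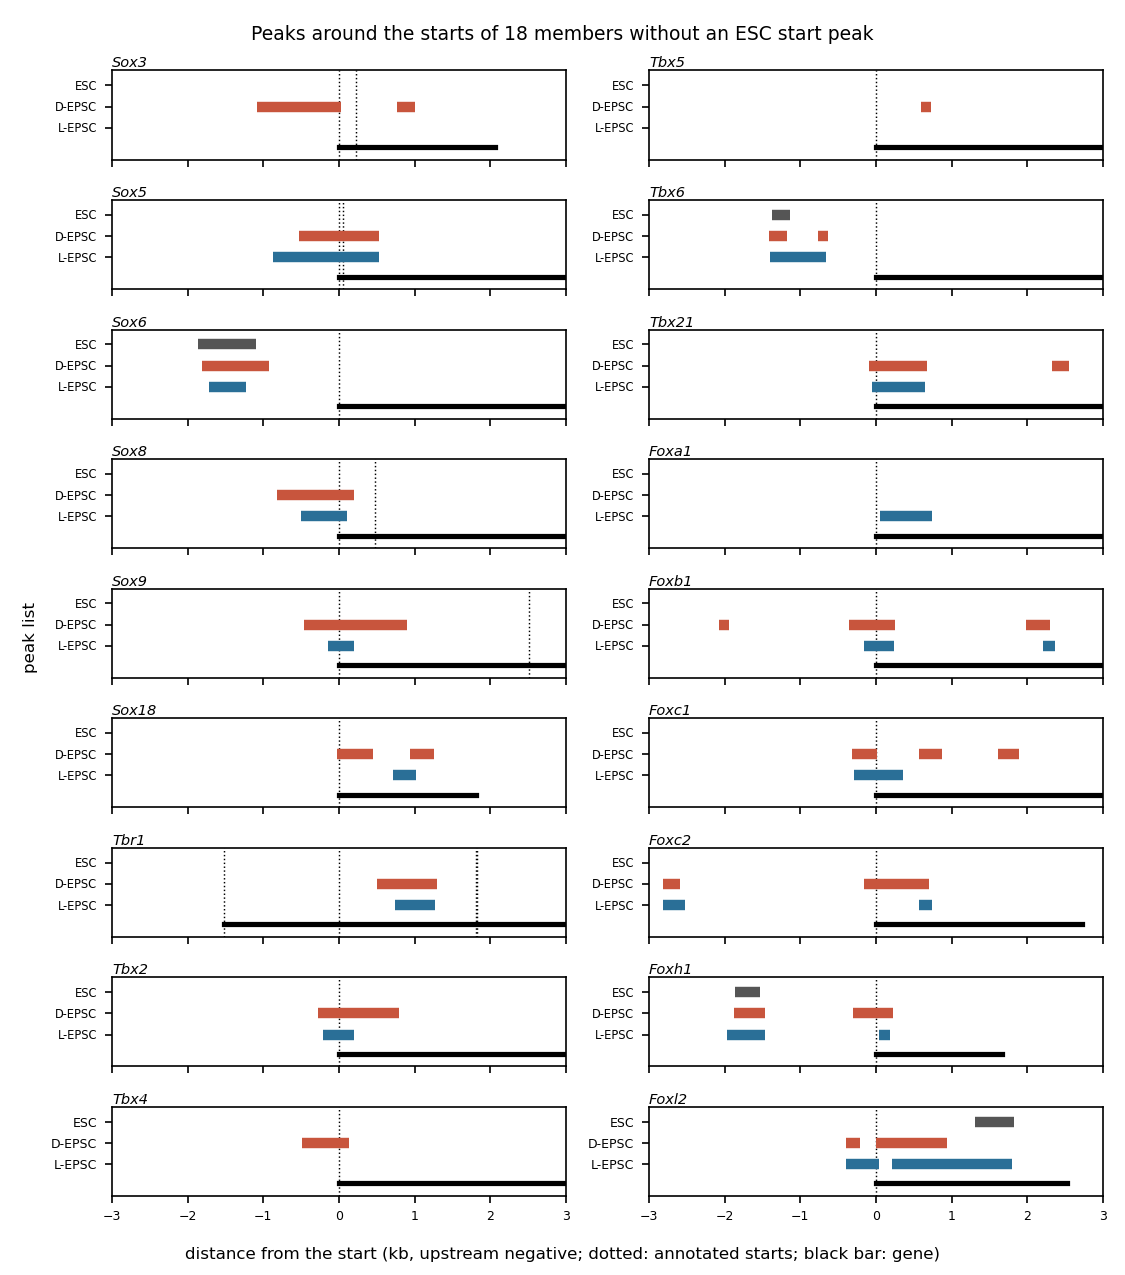
Peaks of the ESC, D-EPSC and L-EPSC lists (coloured bars, 1 row per list) within 3 kb of a start of the 18 genes that had a start peak in an EPSC list and not in ESCs, against distance from the start in kb, with annotated starts dotted and the gene as a black bar. ESC bars appear at Sox6, Tbx6, Foxh1 and Foxl2, each more than 1 kb from the start, and at none of the other genes.

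Of the 8 genes of endoderm, gonad, cilia, pituitary and T cells, 4 had a start peak in ESCs, 6 in D-EPSCs and 7 in the L-EPSC list. Foxa3, a liver factor, Foxj1, which directs motile cilia, Sox15 and Sox30, a gene of male germ cells, were in all 3 lists. Tbx21, the T-bet factor of helper T cells, had 769 bp in D-EPSCs and 707 bp in the L-EPSC list, and its nearest ESC peak lay 48101 bp away. Foxl2, the ovarian regulator, had 1130 and 2018 bp, the widest L-EPSC value of the 41 genes. An ESC peak of 514 bp lay inside Foxl2, 1313 bp from its start, under part of the wide L-EPSC peak, and with a window of 2.5 kb Foxl2 was in all 3 lists.

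Foxa1, a pioneer factor of endoderm, was the gene with a start peak in L-EPSCs only. That peak was 679 bp wide and lay from 57 bp after the start onwards, while the nearest peak was 3658 bp away in ESCs and 3341 bp in D-EPSCs. Those distant peaks belong to a region inside Foxa1 that all 3 lists hold. Tbx19, of pituitary corticotrophs, had no start peak, and the nearest of any list, that of L-EPSCs, lay 16695 bp away.

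Foxo1, Foxo3 and Foxp1, which act in many tissues in growth and metabolic signalling, each had a start peak in all 3 lists.

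Over the 13 genes in both EPSC lists and not in ESCs, the D-EPSC and L-EPSC peaks shared bases at all 13. The shared bases were a median of 59.3% of the D-EPSC width and 100% of the L-EPSC width. Both peaks of each gene had to lie within 1 kb of a start, so overlap was likely from the outset. No such share was computed for the other coding genes. The D-EPSC width was the larger at 9 of 13 genes (69.2%), near the 66.1% of the other coding genes of the same kind. The median ratio was 1.58, against 1.20 for those genes. The nearest ESC peak was a median of 8344 bp from the start, against 11217 bp for all coding genes of that kind. Of the 36 genes with any start peak, 10 had one within 1 kb of the start of another annotated gene, among them Foxa3 beside Sympk and Foxl2 beside Foxl2os, and such a peak cannot be assigned to either gene.

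Among the 18 genes in all 3 lists, start peaks were wider in D-EPSCs. The median summed width was 597.5 bp for ESCs, 1127.5 bp for D-EPSCs and 846 bp for L-EPSCs (order-statistic intervals 263 to 834, 903 to 1401 and 501 to 1060 bp), against 570, 835.5 and 785 bp for the other coding genes in all 3 lists. The D-EPSC width was above the ESC width at 17 of 18 genes, with a median ratio of 2.09, while 83.6% of the other coding genes had a ratio above 1 and their median was 1.39. The L-EPSC width was above the ESC width at 14 of 18, with a median ratio of 1.43 against 1.30. The D-EPSC to ESC contrast was thus the larger, and the L-EPSC ratio lay near that of other genes.

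The 5 highest D-EPSC to ESC ratios were at Sox11, Tbx15, Sox30, Foxn4 and Sox13. At Sox11 the ESC, D-EPSC and L-EPSC widths were 159, 1401 and 974 bp, a ratio of 8.81. At Tbx15 the widths were 172, 1158 and 1615 bp, a ratio of 6.73. Sox30 (379, 1242 and 960 bp, ratio 3.28), Foxn4 (233, 601 and 449 bp, ratio 2.58) and Sox13 (255, 642 and 732 bp, ratio 2.52) followed. The widths are sums over all starts of a gene, and at Tbx15 and Sox13 the ratio does not compare 1 site. At Tbx15 the D-EPSC sum is a peak of 427 bp at the site of the ESC peak and one of 731 bp at another start, and at Sox13 the ESC and D-EPSC peaks shared 0 bp and lay at different starts. All 5 ESC values lay below the ESC median of the 18 genes.

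The 5 lowest ratios were at Foxp2, Foxa3, Foxo1, Tbx20 and Sox15. Foxp2 alone had a ratio below 1, with 1234 bp for ESCs, 1026 bp for D-EPSCs and 649 bp for L-EPSCs. Foxa3 was nearly even at 1012, 1097 and 1083 bp, a ratio of 1.08. Foxo1 (684, 903 and 501 bp, ratio 1.32), Tbx20 (352, 479 and 462 bp, ratio 1.36) and Sox15 (649, 939 and 1003 bp, ratio 1.45) were wider in D-EPSCs by less than the median gene of the 18.

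Which start of a gene had a called peak also differed between lists at some of the genes that all 3 lists hold. At Sox13, the ESC peak lay at an internal start, whereas the outermost start was covered by a D-EPSC peak of 642 bp and an L-EPSC peak of 542 bp and was 10025 bp from any ESC peak. At Tbx15, a start 13379 bp inside the gene was covered by peaks of 731 bp in D-EPSCs and 826 bp in the L-EPSC list and was 9900 bp from an ESC peak. Near the outermost starts of Foxp1 the D-EPSC list had a peak of 674 bp and the L-EPSC list one of 308 bp, with the nearest ESC peak 25383 bp away. At Foxd1, whose 1 annotated start lay under an ESC peak, a second D-EPSC start peak of 574 bp lay inside the gene. The L-EPSC peak of that region lay outside the start window. With Foxd1, 4 of the 18 genes had a start region held by both EPSC lists and not by that of ESCs. No such count of genes was made for the other coding genes. Counted as regions, that is, peaks of the 3 lists merged where they overlap, 15 of 46 start regions were in both EPSC lists only (32.6%, 20.9 to 47.0) and 20 were in all 3 (43.5%, 30.2 to 57.8), against 16.3% and 66.1% for the other coding genes.

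The start windows of the 41 genes were rich in CpG, with a median observed/expected ratio of 0.722, where 1 would mean no depletion, against 0.498 for the other coding genes. A class of high CpG content (0.6 or more) held 30 of them. In that class 50.0% of the listed genes had an ESC start peak (33.2 to 66.8), against 86.3% of 8221 other coding genes. The D-EPSC and L-EPSC shares were both 86.7% (70.3 to 94.7), against 98.1% and 96.7%. Start peaks in both EPSC lists and not in ESCs were found at 33.3% (19.2 to 51.2), against 10.4%. Within this class the listed genes were therefore low in all 3 lists beyond counting error, by most in ESCs and by less in both EPSC lists. In the middle class, which held 10 of the listed genes, a start peak was found at 3 in ESCs (interval 10.8 to 60.3%, against 59.9% of other coding genes), 8 in D-EPSCs (49.0 to 94.3%, against 78.6%) and 6 in the L-EPSC list (31.3 to 83.2%, against 73.6%), all within counting error. The low class held Tbx5 alone.

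**Figure D3:**
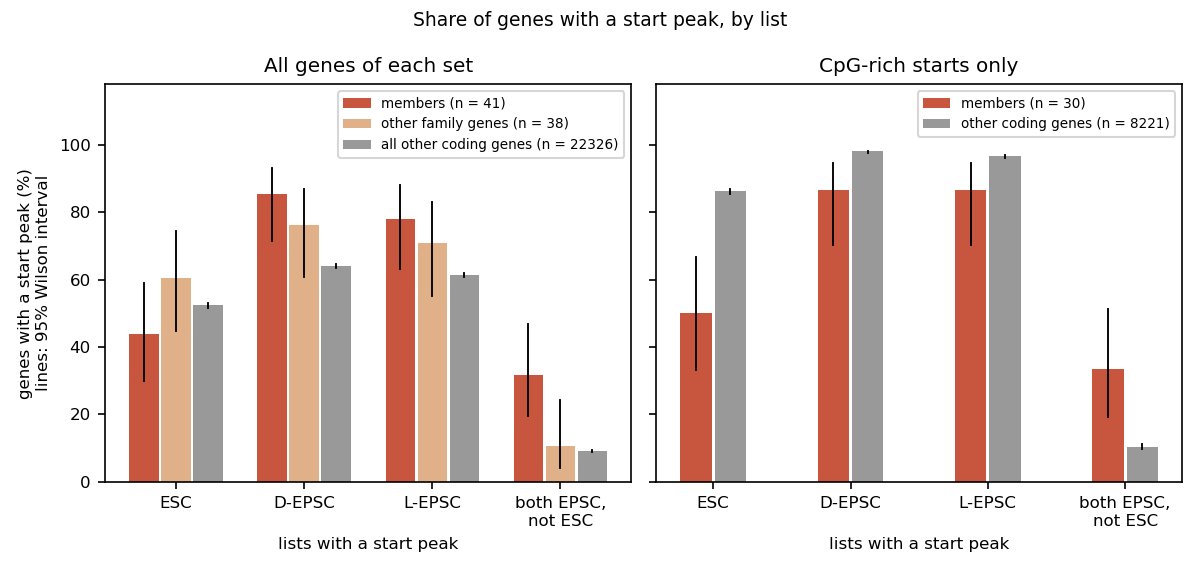
Percent of genes with a start peak in each list, and in both EPSC lists but not ESCs, for the 41 listed genes (red), the 38 other Sox, T-box and Fox genes (tan) and all other coding genes (grey), with 95% Wilson intervals as lines. The right panel keeps only genes with CpG-rich starts, where 50.0% of 30 listed genes and 86.3% of 8221 others had an ESC start peak.

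Not every CpG-rich start had a peak. Sox14, T and Tbx1 were in the high class, with ratios of 0.635, 0.657 and 0.898, and had no start peak in any list (3 of 30, 10.0%, against 1.48% of the other coding genes of that class). At the other end the 5 lowest ratios were mixed. Foxh1, Tbx6 and Sox15, with ratios of 0.310, 0.301 and 0.357, had start peaks in at least both EPSC lists, whereas Tbx5, the lowest at 0.231, had the 124 bp D-EPSC peak alone and Tbx19, at 0.309, had none. The median ratio was 0.770 for the 18 genes in all 3 lists and 0.721 for the 13 in both EPSC lists only.

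The remaining members of the 3 families served for comparison. Of 38 such genes, among them Sox2, Eomes and Tbx3, 23 had a start peak in ESCs (60.5%, 44.7 to 74.4), 29 in D-EPSCs (76.3%, 60.8 to 87.0) and 27 in the L-EPSC list (71.1%, 55.2 to 83.0). Start peaks in both EPSC lists and not in ESCs were found at 4 of them, Sox7, Foxf2, Foxm1 and Foxq1 (10.5%, 4.17 to 24.1). The share was 31.7% for the listed genes, whose interval of 19.6 to 47.0 overlaps. Sox17, the endoderm factor, and Foxp3, of regulatory T cells, were among 8 with no start peak.

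Inside the gene bodies, leaving out start peaks, the 41 genes held 24 peaks in ESCs, 50 in D-EPSCs and 39 in the L-EPSC list. At least 1 such peak was found in 11 genes in ESCs (26.8%, 15.7 to 41.9, against 21.4% of all coding genes), 17 in D-EPSCs (41.5%, 27.8 to 56.6, against 32.7%) and 20 in the L-EPSC list (48.8%, 34.3 to 63.5, against 31.4%). Per 100 kb of gene there were 0.771 peaks in ESCs, 1.61 in D-EPSCs and 1.25 in the L-EPSC list, against 0.802, 1.66 and 1.55 for the other coding genes. Of the 67 body regions, 14 were in all 3 lists (20.9%) and 11 in both EPSC lists only (16.4%, 9.42 to 27.1), against 20.9% and 19.1%. D-EPSC-only regions made up 31.3% (21.5 to 43.2, against 26.8%). Regions of the ESC and D-EPSC lists were 5 of 67 (7.46%, 3.23 to 16.3), above the 2.43% of the other genes. Per length, the gene bodies of the 41 genes thus lay near or below the other genes. By family and in the same order of lists, the Sox genes had 0.730, 1.58 and 0.852 per 100 kb and the Fox genes 0.717, 1.61 and 1.52. The T-box genes had 1.13, 1.70 and 2.27, from 4, 6 and 8 body peaks. These family rates rest on few peaks and have no interval, so no difference from the other genes is established. The order of the body counts depended on the setting. With equal list lengths the D-EPSC and L-EPSC counts fell to 17 and 21, below the 24 of ESCs, but that setting removes narrow peaks from the EPSC lists alone. Among peaks of at least 300 bp in every list the counts were 9 in ESCs, 17 in D-EPSCs and 18 in the L-EPSC list, and in the widest 50% of each list they were 6, 14 and 13. Neither of these settings equalises list length.

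Most body peaks lay in a few genes, not all of them long. Sox5, Foxp1, Sox6, Foxo3 and Sox13, the 5 with the most, held 15 of the 24 ESC peaks, 35 of the 50 D-EPSC peaks and 24 of the 39 L-EPSC peaks. Sox5, which spans 953.553 kb, had 8, 13 and 9, and 5 of its 15 body regions were in all 3 lists even though no ESC peak lay at its starts. Foxp1 had 5, 8 and 8. Sox6 had none in ESCs, 7 in D-EPSCs and 2 in the L-EPSC list, and Foxo3 none, 4 and 4, although Foxo3 had start peaks in all 3 lists. Sox13, which spans 42.075 kb, had 2, 3 and 1, whereas Foxp2, which spans 540629 bp, had 1 body peak, in the L-EPSC list. The genes with many body peaks were thus of both kinds, with and without a start peak in ESCs.

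**Figure D4:**
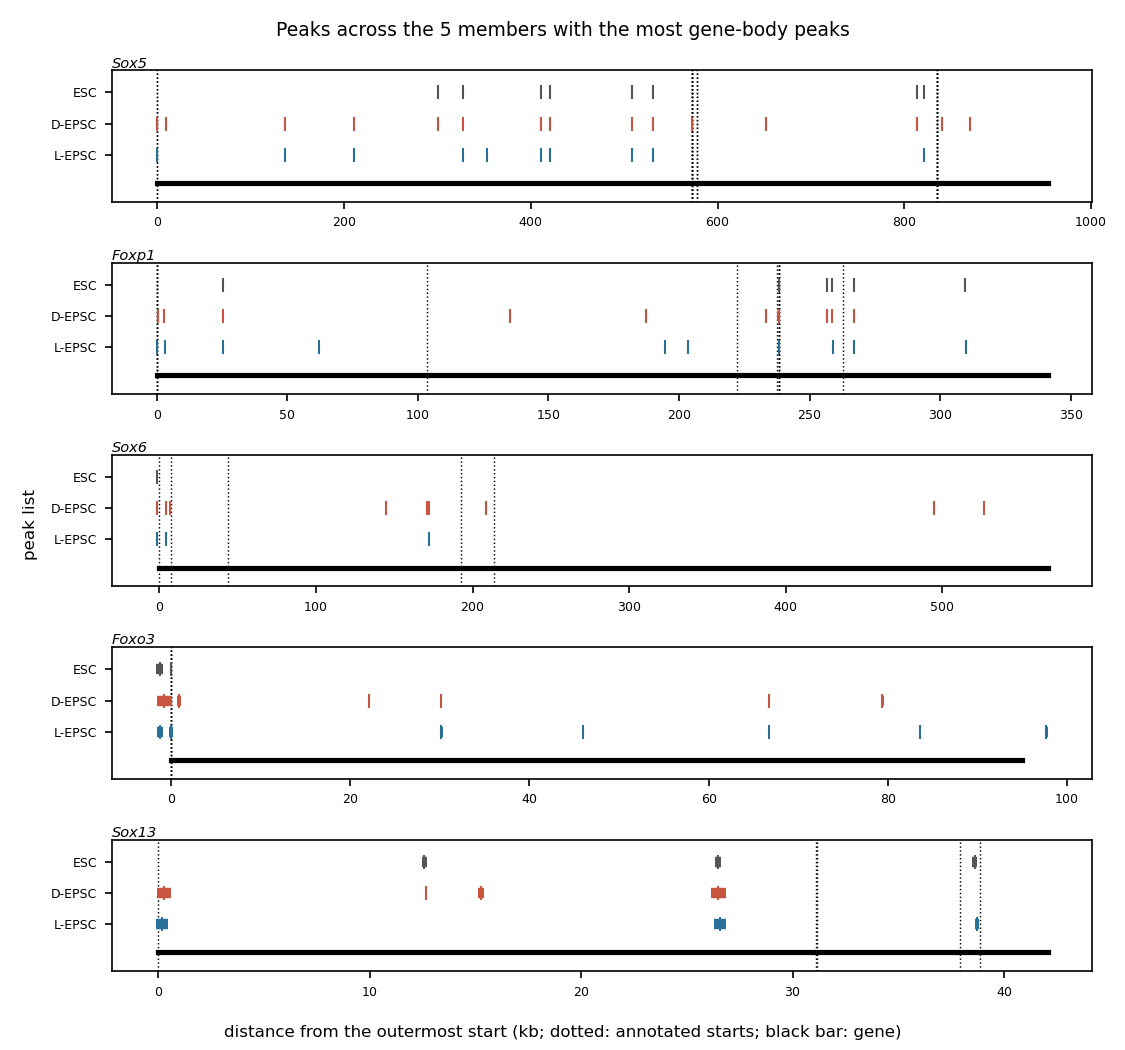
Peaks of each list (coloured marks, 1 row per list) along the 5 genes with the most gene-body peaks, against distance from the outermost start in kb, with annotated starts dotted and the gene as a black bar. Inside Sox6 the ESC row is empty and inside Foxo3 it holds only the end of a peak over the start, while Sox5 has 8 ESC marks, all in its interior.

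The sequence of 1 intronic D-EPSC peak of Sox6 is shown, since it holds a SOX core motif inside a Sox gene body that had no ESC peak. It is read on the strand of the gene from mm9, with the motif in capitals.
Sox6, D-EPSC list only, − strand, chr7:122973379-122973499: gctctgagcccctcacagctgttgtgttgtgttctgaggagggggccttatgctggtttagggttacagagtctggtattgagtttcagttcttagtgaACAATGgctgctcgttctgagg

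The 300 bp around each peak's midpoint were searched on both strands for exact matches to ACAATG (the SOX core), TGTTTAC (a FOX motif), GGTGTGA (the core of a T-box site) and ATGCAAAT (the octamer). In body peaks, ACAATG was found in 5 of the 24 in ESCs (20.8%, 9.24 to 40.5), 10 of the 50 in D-EPSCs (20.0%, 11.2 to 33.0) and 7 of the 39 in the L-EPSC list (17.9%, 8.98 to 32.7). All peaks of the lists held it at 12.6%, 12.8% and 13.5%, which lie inside those intervals. In start peaks it was found in 3 of 21, 3 of 45 and 3 of 39. So no list held it in member peaks at a share beyond counting error from that of all its peaks. Matches to the FOX motif and to the octamer were in none of the 21 ESC, 45 D-EPSC and 39 L-EPSC start peaks, where the upper bounds of the intervals, 15.5%, 7.87% and 8.97%, lie above their shares among all peaks, 3.23% to 3.31% for the FOX motif and 2.33% to 2.39% for the octamer. GGTGTGA was within the 300 bp of 1 D-EPSC start peak, at Foxb1, where the match also lies in the L-EPSC peak but outside the 300 bp around its midpoint, and in 2 of 50 D-EPSC body peaks (4.00%, against 4.20% of all peaks of that list).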

How the data were processed

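ATAC-seq libraries of J1 ESCs, D-EPSCs and L-EPSCs were made in 2 technical replicates per state, and groups were taken from the sample labels. The authors aligned paired reads to mm9 with Bowtie2 2.3.5, filtered them with SAMtools 1.10 (versions as in the submitters' processing notes) and called peaks with MACS at its defaults. How replicates were combined, and whether duplicates were removed, cut positions shifted or blacklisted regions filtered, is not given in the sources used here. Duplicates, if kept, and depth bear on which weak peaks were called, and an absent shift bears on the exact peak edges. The deposited lists hold a chromosome, a start, an end and a name for each peak, with no score, count or signal, so width is the only size that can be given. Depth per library is unknown here.

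Peaks on the autosomes, X and Y were compared with GENCODE M1 genes of these chromosomes and NCBIM37 sequence, which is mm9. Start peaks shared at least 1 bp with 1 kb on either side of any annotated start. Body peaks shared at least 1 bp with the gene span and were not start peaks. CpG observed/expected was the highest value among a gene's start windows. Medians have order-statistic intervals. The members and lists were chosen with earlier results of these data known. Full values were given for genes whose start peaks differed between lists, genes with none, the 5 highest and 5 lowest D-EPSC to ESC width ratios and the 5 genes with most body peaks. For Sox4, which has 2 gene IDs, the longer gene was used. Foxl1, annotated as a pseudogene, was not counted. Tfcp2l1 was found under an older symbol. Sox1 was placed by its RefSeq promoter sequence (GRCm38.p6). Computation used Python 3.11.15, numpy 2.4.6, scipy 1.17.1, pysam 0.24.0 and matplotlib 3.10.9. Overlap counts were tested on simulated data against bedtools 2.31.1. The alternatives were other windows, starts, peak widths, list lengths and merging.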

Additional observations from a re-analysis of the deposited data

How the results depend on the processing

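No paired analysis was possible because each state has 1 peak list with no value per replicate, and no replicate could be left out. Over the alternatives, 71 of the recomputed counts, medians and shares stayed within 1.5 times the value given, or within its interval, and 15 moved. The start-peak counts of the 3 lists all stayed by that measure, but the L-EPSC interval reached the share of coding genes with a window of 500 bp (53.0 against 60.04%), with peak midpoints (60.7 against 60.8%), with starts of coding transcripts (60.7 against 60.8%) and in the widest 50% of each list (53.0 against 53.5%). The genes with no start peak rose to 8 with a window of 500 bp. Gene-body counts (ESC, D-EPSC, L-EPSC) became 40, 91 and 74 with start windows kept, 46, 101 and 83 with 10 kb added on either side, 6, 14 and 13 in the widest 50% of each list, and 9, 17 and 18 among peaks of at least 300 bp. These changes follow from what each setting adds or removes. With equal list lengths the D-EPSC and L-EPSC body counts fell to 17 and 21, below the 24 of ESCs. That setting keeps ESC peaks down to 128 bp but no EPSC peak under 279 bp. The EPSC counts stayed above that of ESCs under the other settings above, which apply the same rule to each list but do not equalise list length. Whether list length sets the order was not tested. By gene, 22 of 41 kept the same lists under every setting, and 11 of the 18 genes in all 3 lists stayed there, all but Sox11, Sox13, Tbx15, Tbx20, Foxj1, Foxn4 and Foxp1. Of the 13 genes in both EPSC lists and not in ESCs, 4 did so under every setting (Sox8, Tbx2, Tbx21 and Foxb1), and between 7 and 12 under any single one. Their number ranged from 10 to 15. Depth limits all calls of absence, and it could not be measured from these lists.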
